A study of Saccharomyces cerevisiae with 11 samples.

Results

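The Cbp20 profile described here consists of 3051 ChIP-seq peaks, which are the replicate 1 peaks that shared at least 1 bp with a replicate 2 peak, out of 3801 in replicate 1. The 2 libraries belong to a study of snoRNA processing in *Saccharomyces cerevisiae* with 11 samples, of which 4 have peak lists here. Those are 2 of Cbp20-myc and 2 of Rnt1-myc, while the other 7 samples hold RNA-seq data that were not used. Both Cbp20-myc libraries came from a MATa strain with the alleles his3Δ1, leu2Δ0, met15Δ0 and ura3Δ0, grown in YPD at 30 °C and precipitated with an anti-myc antibody. The sample name gives Cbp20 as the tagged protein, whereas the genotype field gives the tag as CBP80-myc13::NAT, on the partner subunit. No untagged or input library was analysed here, and the lists hold positions without heights, so depth and occupancy per peak are unknown. The labels do not say whether the replicates were separate cultures.

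Cbp20 and Cbp80 form the nuclear cap-binding complex (CBC), which binds the m7G cap that RNA polymerase II (Pol II) transcripts receive soon after initiation. CBC stays with the transcript through splicing, 3ʹend formation and export, so in ChIP it can be cross-linked to genes through the nascent RNA. The paper reported that RNase treatment lowered the Cbp20 ChIP signal over *SNR47*. Whether the peaks described here came through capped RNA was not tested. The tRNA genes, the 5S rRNA genes and *SNR6* are transcribed by Pol III, and their transcripts are not capped in this way.

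Where members began and broke off can be read against the sequence. The stretches below are from the R64 assembly, written 5ʹ to 3ʹ on the coding strand. In *STE6*, the transporter that exports a-factor (chrXI:46146-46295, minus strand), and in *NUM1*, a cortical anchor for dynein (chrIV:755628-755777, plus strand), each stretch starts at the ATG, and capitals mark bases under Cbp20 peaks in both replicates. In *HIS3*, a histidine synthesis gene (chrXV:722235-722460, plus strand), capitals mark the 2 HindIII sites. They are shown because the his3Δ1 allele lacks the HindIII fragment between them.
STE6: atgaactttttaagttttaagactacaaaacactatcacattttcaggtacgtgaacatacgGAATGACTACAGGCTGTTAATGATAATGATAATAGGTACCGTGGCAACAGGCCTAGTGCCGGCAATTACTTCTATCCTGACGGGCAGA
NUM1: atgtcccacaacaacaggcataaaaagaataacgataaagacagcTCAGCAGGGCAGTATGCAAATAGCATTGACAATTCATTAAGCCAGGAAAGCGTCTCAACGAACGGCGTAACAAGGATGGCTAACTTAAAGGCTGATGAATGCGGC
HIS3: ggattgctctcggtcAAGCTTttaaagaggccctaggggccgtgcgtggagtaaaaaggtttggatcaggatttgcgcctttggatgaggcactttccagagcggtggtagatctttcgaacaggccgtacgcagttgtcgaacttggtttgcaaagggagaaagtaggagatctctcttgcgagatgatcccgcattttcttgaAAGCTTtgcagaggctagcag

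The peaks can be read against the alleles of the strain. Counted from the first coding base, the HindIII sites of *HIS3* start at positions 305 and 495. The replicate 1 peak spanned positions 38 to 260, and the replicate 2 peaks spanned 22 to 315 and 495 to 746, so neither list had a peak over most of the missing fragment. No peak of either replicate touched *LEU2*, *URA3* or *MET17* (MET15), the other loci deleted in the strain. All 5 a-specific genes on the list, which MATa cells express, were covered. *STE2*, the receptor for alpha-factor, *MFA1* and *MFA2*, which encode a-factor, were under peaks over 100% of their length in both replicates. *BAR1*, the protease that degrades alpha-factor, was covered over 99.8% and 98.1%, and *STE6* over 85.0% and 79.2%. The list is not complete. *AGA2*, an a-specific gene not on it (named after its values were seen), was under no member. An unmatched replicate 1 peak covered 75% of *AGA2*, and replicate 2 covered 0. None of the 4 alpha-specific genes, *STE3*, *SAG1*, *MF(ALPHA)1* and *MF(ALPHA)2*, had a covered base. At the CBC genes themselves, the peaks over *STO1* (CBP80) spanned only its 5ʹend side, at positions 39 to 632 and 113 to 577 of 2908 bp, while *CBC2* (CBP20) was covered over 73.5% and 36.8%.

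Members were wider than the peaks found in replicate 1 alone. The median member was 625 bp wide (interquartile range 340 to 1177.5 bp, lowest 146 bp, highest 5693 bp), against 222.5 bp for the 750 replicate 1 peaks that met no replicate 2 peak. Just inside the rule, the smallest overlap of a member was 4 bp and 13 members shared under 50 bp, whereas 2913 had at least 50% of their length under replicate 2 peaks. Just outside it, the nearest non-member lay 2 bp from a replicate 2 peak and 27 of the 750 lay within 100 bp. The median distance over all 750 was 651 bp. From the other side, 3206 of 3648 replicate 2 peaks met a replicate 1 peak. Members covered 21.5% of the nuclear genome of 12071326 bp, their replicate 2 counterparts 20.3%, and 18.9% was under both. There were 0 peaks on the mitochondrial genome. By chromosome, the replicate 1 cover ranged from 15.4% on chromosome VI to 25.3% on chromosome V, with replicate 2 at 14.8% and 24.2%.

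Most of the covered sequence was coding. Coding exons make up 72.3% of the genome and held 84.8% of the member bases in replicate 1 and 87.2% in replicate 2. Sequence between genes makes up 26.5% and held 12.3% and 9.89%. Of the 3051 members, 2874 (94.2%) touched at least 1 protein-coding gene. Of these, 2464 touched 1 coding gene, 397 touched 2 and 13 touched 3 or more, up to 4. Another 124 touched only non-coding genes and 53 touched no annotated gene. The peaks carry no strand, so where 1 peak spans several genes their separate parts cannot be told apart.

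Of the 6002 nuclear protein-coding genes, 2745 had at least 1 bp under a member in replicate 1, 2669 under its counterparts in replicate 2, and 2660 in both (44.3%). At least 50% of the gene was covered for 1785 and 1741 genes, and for 1632 in both (27.2%). The whole gene was covered for 534 and 451, and for 399 in both (6.65%). These shares are the background for every group of genes described next. Of the genes with a peak, 2207 carried 1 member, 372 carried 2 and 81 carried 3 or more. Another 3248 coding genes had no base under a member or its counterpart, and 593 of these carried a peak of 1 full list that the other list did not match. A gene given at 0 has no base under members or counterparts.

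Genes for cytoplasmic ribosomal proteins and core histones were among the most fully covered. All 137 cytoplasmic ribosomal protein genes were at least 50% covered in both replicates, and 122 were wholly covered. Cover ran from start codon to stop codon in genes such as *RPL7A* (1662 bp) and *RPS0A* (1214 bp). The least covered was *RPL1A*, at 98.8% and 94.8%, although only 19% of its 50-mers are unique in the genome. A low share of unique 50-mers thus did not by itself prevent cover. All 18 aminoacyl-tRNA synthetase genes, which charge tRNAs, were at least 50% covered, from *FRS1* (100% and 99.7%) to *ALA1* (77.2% and 68.5%), yet 0 were wholly covered in both. Of 30 translation factor genes, 28 were at least 50% covered and 13 wholly. *YEF3*, elongation factor 3, was the longest wholly covered gene at 3135 bp. All 8 core histone genes (*HTA1*, *HTA2*, *HTB1*, *HTB2*, *HHT1*, *HHT2*, *HHF1* and *HHF2*) were covered over 100% in both replicates.

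Genes for ribosome assembly were touched more often than they were filled. Of 53 UTP, NOP and RRP genes, 45 had a peak in both replicates, 23 were at least 50% covered (32 in replicate 1 alone and 23 in replicate 2 alone) and 2 were wholly covered. Those 2 were *UTP5*, a subunit of the small subunit processome, and *NOP1*, the box C/D methyltransferase fibrillarin. *NOP9* and *NOP53*, both needed for rRNA processing, had 0 covered bases. Of 65 genes for mitochondrial ribosomal proteins, 30 carried a peak and 18 were at least 50% covered, both near the background. None was wholly covered, against 6.65% of all coding genes. Their median length was 714 bp. Of all coding genes over 500 and up to 1000 bp, 34.1% were at least 50% covered and 10.2% wholly. Among the mitochondrial ribosomal protein genes, values ran from *RSM7* (98.3% and 98.0%) and *MRPL8* (98.5% and 92.9%) down to *RSM23* and *MRPL35* at 0. Of 31 RNA polymerase subunit genes, 20 were at least 50% covered. Those included the long genes *RPA190* (91.9% and 85.8%) and *RPO21* (88.4% and 77.5%), the largest subunits of Pol I and Pol II, whereas the short *RPB9* and *RPC17* were at 0. Unmatched peaks covered 76.4% of *RPB9* in replicate 1 and 42.8% of *RPC17* in replicate 2.

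Among the other constitutive complexes, all 13 vacuolar ATPase genes were at least 50% covered, from *VMA1* (100% and 99.9%) to *VMA5* (54.5% and 51.1%). Of 33 proteasome genes, 33 had a peak and 29 were at least 50% covered. *PRE6* and *PUP3*, of the core particle, were wholly covered, while *RPN8*, a lid subunit, was covered over 12.1% and 1.08%. Fatty acid and ergosterol synthesis gave 23 of 30 genes at least 50% covered, with *ERG11*, the sterol demethylase, at 100% in both and *ERG12* and *ERG26* at 0. Of 36 genes for respiratory chain and ATP synthase subunits, 12 were at least 50% covered, a share of 33.3%, including *COX5A* and *QCR6* at 100%, whereas *SDH1* and *QCR2* were at 0, with an unmatched replicate 2 peak over 20.7% of *QCR2*. In the tricarboxylic acid cycle 6 of 10 were at least 50% covered, with *IDH1* at 100% and *KGD1* and *FUM1* at 0. Unmatched peaks covered 8.67% of *KGD1* in replicate 1 and 26.4% of *FUM1* in replicate 2. Amino acid synthesis gave 33 of 52. *MET6* and *ILV3* were wholly covered and *MET5* and *MET10*, which encode the sulfite reductase subunits, had no covered base.

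In central metabolism and other lists, some close relatives differed in cover. Most of these are named as the most or least covered of their list, so the contrast follows from that choice. Other related genes were covered alike, as all 8 core histone genes were at 100%. Of 21 genes for glycolysis and fermentation, 17 were at least 50% covered and 14 wholly. *PDC1*, the main pyruvate decarboxylase, and *PFK1*, a phosphofructokinase subunit, were at 100% in both replicates, while the isozyme genes *PDC5* and *PDC6* were at 0 in both. Of 16 hexose transporter genes, 3 had a peak, and 6 of the 16 have under 50% unique 50-mers. *HXT1* was at 100% in both and *HXT3* at 98.1% and 98.5%, and *HXT4* and *HXT5* were at 0. *HXT2*, the other one, named after its values were seen, was at 89.2% and 85.4%. Among 16 chaperone genes, 13 were at least 50% covered. *SSE1* was at 100% and its paralogue *SSE2* at 0, and *SSA3*, a heat-inducible Hsp70 gene, was at 0. *TIF4631*, an eIF4G gene of 2859 bp, was at 100% and its paralogue *TIF4632* at 0. *ANB1*, the eIF5A gene used in low oxygen, was at 0 and *HYP2*, its aerobic counterpart (chosen after its values were seen), at 100%. *PMA1*, the plasma membrane proton pump, was at 100%, whereas its paralogue *PMA2* (also chosen after its values were seen) was at 0. *FKS1*, a glucan synthase subunit, was covered over 91.8% and 72.3%, and its paralogue *GSC2* was at 0. Among the uncovered genes named here, *HXT5* had the lowest share of unique 50-mers, 95.95%, so reads from those named could be placed.

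Genes known for use in other growth conditions or in meiosis were nearly all free of members. Of 41 meiosis and sporulation genes, 3 had a peak in both replicates and 0 were at least 50% covered in both. The most covered were *SPR6* (71.5% and 37.8%) and *SMK1* (34% and 27%). All 9 genes for galactose and maltose use, among them *GAL10* and *MAL11*, were at 0, in cells grown on glucose, and 2 of the 9 carried a peak of 1 list only. All 24 seripauperin genes, a family known for induction without oxygen, were at 0, but 18 of them have under 50% unique 50-mers, so for most the lists cannot tell an absence of Cbp20 from an absence of mapped reads. Of 12 subtelomeric COS genes, 1, *COS6*, was covered (64.8% and 55.7%), and the same limit applies to 6 of the 12. Among the 7 genes for cap synthesis and cap binding, *CDC33*, the cytoplasmic cap-binding protein eIF4E, was at 97.8% and 87.9% and *TGS1*, which trimethylates snRNA and snoRNA caps, at 63.7% and 55.3%. *CEG1*, *CET1* and *ABD1*, which make and methylate the cap, were at 0.

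By the products that the annotation gives, 80 of 580 uncharacterized proteins (13.8%), 23 of 129 protein kinases (17.8%), 19 of 104 ubiquitin enzymes (18.3%), 14 of 54 transcription factors (25.9%) and 54 of 155 permeases and transporters (34.8%) had genes at least 50% covered in both replicates. Each class but the last was under the background of 27.2%. The 700 genes on any of the 25 function lists were at least 50% covered in 60.3% of cases. For the 5302 coding genes on none of them the share was 22.8%, so 1210 of the 1632 genes covered to this extent belonged to no list. The lists were chosen with earlier results of these data known, so these shares depend on that choice. Ribosomal protein genes, all covered to this extent, make up 137 of the 700.

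**Figure D1:**
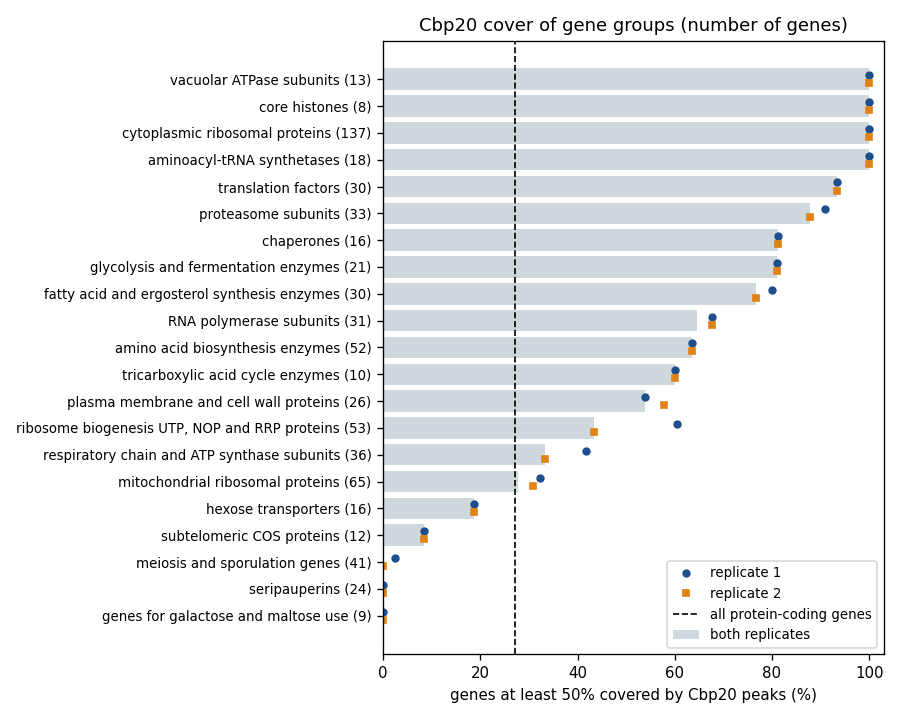
Share of genes at least 50% covered by Cbp20 peaks (x axis, %) in each function list of 8 or more genes, with the number of genes in brackets. Bars count genes covered in both replicates, points give each replicate alone, and the dashed line is the share over all protein-coding genes, 27.2%. Ribosomal protein, histone, vacuolar ATPase and tRNA synthetase genes stood at 100%, and meiosis, seripauperin and galactose or maltose genes at 0 in both replicates together.

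Cover rose with codon use. The codon adaptation index, which measures how closely a gene uses the codons of a reference set and is a sequence-based proxy for expression, was computed against the ribosomal protein genes, which were then left out. Over the other 5608 coding genes with at least 50% unique 50-mers, split into 10 classes of equal number, the share at least 50% covered in both replicates was 12.5% in class 5 and 74.5% in the class of highest index. In that top class the single replicates gave 76.6% and 74.9%. The class of lowest index was not the least covered, at 29.1%, and its median GC content was 43.3% against 38.6% in class 5.

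The covered share also rose with base composition. Split by GC content of the coding sequence into 10 classes of 5735 genes with at least 50% unique 50-mers, the genes at least 50% covered in replicate 1 went from 5.57% in the lowest class (median GC 35.1%) to 63.1% in the highest (median 47.1%). In replicate 2 they went from 4.01% to 67.8%. The share rose from each class to the next in both replicates. In the 2 Rnt1-myc lists, from the same antibody in another strain, the shares of genes covered to this extent were lower, and went from 1.92% to 17.4% and from 1.92% to 23.9% between the same classes. The genome as a whole has 38.3% GC, the Cbp20 members 41.3%, their replicate 2 list 42.1% and the replicate 1 peaks that were not members 39.6%. With genes split into 3 classes by GC and, separately over all of them, into 5 classes by index, the class of highest index was the most covered in each GC class, with 24.5%, 53.4% and 71% at least 50% covered from the lowest to the highest GC class. The values for the least covered index class in each were 2.49%, 9.32% and 35.4%. ChIP libraries can differ in how well they recover sequence of different GC content, and the part of GC content in the results given here was not tested.

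**Figure D2:**
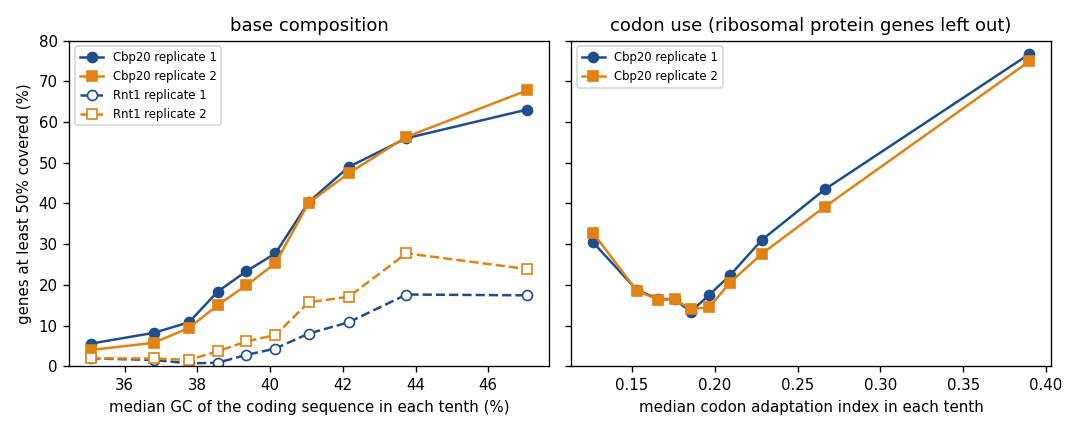
Share of protein-coding genes at least 50% covered (y axis, %) against the median GC content of each of 10 equal classes (left) and against the median codon adaptation index of each of 10 equal classes without ribosomal protein genes (right). Filled points are the Cbp20 replicates and open points the Rnt1 replicates; Cbp20 went from 5.57% to 63.1% and from 4.01% to 67.8% over the GC classes.

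Long genes had a peak about as often as short ones, but less of their length was covered. Counting only the genes with at least 50% unique 50-mers, at least 1 bp was covered in both replicates in 37.8% of genes up to 500 bp, 48.6% of those over 500 and up to 1000 bp and 35.3% of those over 5000 bp. The share at least 50% covered was 31.8% up to 500 bp, 34.6% over 500 and up to 1000 bp, 17.9% over 2000 and up to 3000 bp and 8.44% over 3000 and up to 5000 bp. Of the 68 genes over 5000 bp, 6 (8.82%) were covered to this extent. Whole cover fell from 12.4% of genes up to 500 bp to 0.51% over 3000 and up to 5000 bp, where *YEF3* and *EGT2*, a cell wall protein gene of 3126 bp, were the wholly covered genes. For genes that had a peak in both replicates, the median covered share was 90.6% up to 500 bp and 20.1% over 5000 bp. Over the 10 GC classes, the median gene length was 1209 bp in the lowest, 1572 bp in the next and 783 bp in the highest.

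**Figure D3:**
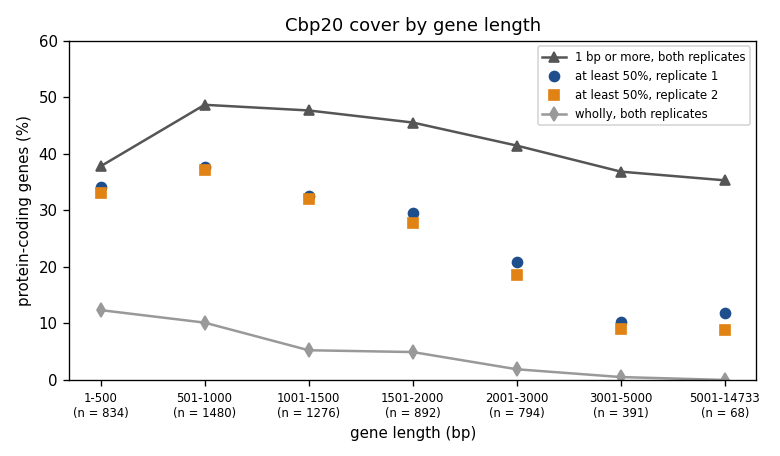
Share of protein-coding genes (y axis, %) by length class (x axis, bp, with the number of genes), for genes with at least 50% unique 50-mers. Triangles count genes with at least 1 bp covered in both replicates, circles and squares genes at least 50% covered in each replicate, and diamonds genes wholly covered in both; whole cover fell from 12.4% to 0 while the share with a peak stayed between 35.3% and 48.6%.

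The longest genes were mostly bare, while some other long genes were covered over most of their length. Of the 10 longest coding genes, *REA1* (14733 bp, a ribosome assembly ATPase), *DYN1* (12279 bp, dynein heavy chain), *TRA1*, *TOM1*, *VPS13*, *IRA1*, *IRA2*, *CSF1* and *TEL1* had no base under a member. *REA1* and *TOM1* had 542 and 149 bp under unmatched replicate 1 peaks and *TRA1* 351 bp under one of replicate 2. *DYN1*, *VPS13*, *IRA1*, *IRA2* and *CSF1* were also the longest genes with no peak at all in either full list. The other one, *NUM1* (8247 bp), was covered over 11.3% and 17.2%, and its members started with a 241 bp peak at position 42, close to the start codon, where the replicate 2 peak began at position 46. At the other extreme, *FAS2*, a fatty acid synthase subunit of 5664 bp, was covered over 5662 and 5656 bp and lay under the widest member, of 5693 bp. *FAS1*, the other subunit, was covered over 94.7% and 89.6% of 6156 bp. The rest of the 10 genes with the most covered bases were *PDR5*, a drug transporter (100% and 99.3%), *RPA190*, *HAP1*, a haem-responsive activator (97.7% and 90.8%), *FKS1*, *ADE6* (99.3% and 99.7%) and *URA2* (60.6% and 60.3%) of nucleotide synthesis, *RPO21*, and *RPA135*, the second subunit of Pol I (100% and 99.2%). Wide members also ran over several genes. A member of 5292 bp held the whole of *GAS1*, a cell wall glucanosyltransferase gene, and of its neighbour *PSE1*, an importin gene, where replicate 2 had 3 peaks. A member of 5234 bp held *HPF1*, a mannoprotein gene of 2904 bp.

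Along genes, cover set in at the start codon. In the 2156 coding genes with no other gene within 300 bp and full flanks, 4.29% of positions were under peaks in replicate 1 from 200 to 100 bp upstream of the first coding base, and 2.77% in replicate 2. Within the first of 10 equal parts of the gene the shares were 28.7% and 27.5%, they were highest in part 8 at 38.7% and 37.8%, and in part 10 they were 33.8% and 30.8%. In the 100 bp past the stop codon 22.4% and 16.5% were covered. GC content along the same positions was 35.9% from 200 to 100 bp upstream, 40.7% in part 1 and 31% just past the stop codon. Over all coding genes, the first coding base was under peaks in both replicates in 670 genes (11.2%), and the last in 1138 (19.0%). The single replicates gave 848 and 759 for the first base and 1506 and 1187 for the last. Both ends were under peaks in 427 genes, the first base alone in 243 and the last alone in 711.

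Long genes ran the other way. In the 200 such genes over 3000 bp, the covered share was 25.4% and 24.2% in part 1 and 10.3% and 9.89% in part 10, and GC content was 40.4% and 39.4% in those parts. Of the 214 genes over 3000 bp with a peak in both replicates, 166 had more of their 5ʹ side than of their 3ʹ side covered in both replicates (each side being 50% of the gene) and 30 the reverse. Over 1000 and up to 3000 bp the counts were 368 and 653 of 1394 genes, and up to 1000 bp they were 149 and 447 of 1052. The direction was the same when genes with a neighbour within 300 bp and wholly covered genes were left out, with 60 against 19 of 89 genes over 3000 bp, 170 against 261 of 531 over 1000 and up to 3000 bp and 47 against 130 of 244 up to 1000 bp.

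**Figure D4:**
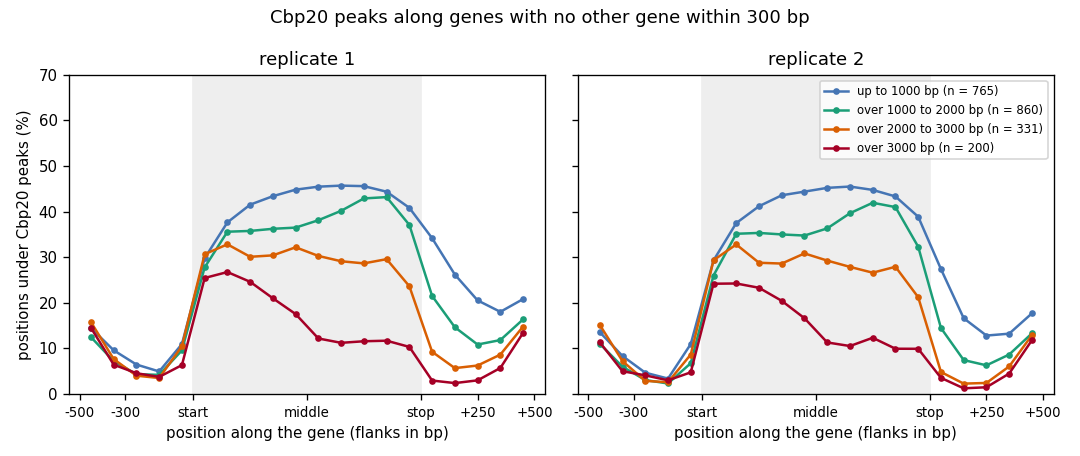
Share of positions under Cbp20 peaks (y axis, %) along coding genes with no other gene within 300 bp, in 100 bp steps over 500 bp of flank on each side and 10 equal parts of the gene (grey band, from start to stop codon), by gene length and replicate. Lines rise at the start codon in all 4 length classes, and over 3000 bp they fall from 25.4% and 24.2% in the first part to 10.3% and 9.89% in the last.

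Peak edges lay close to the start codon. For the 716 genes with no other gene within 300 bp that were at least 50% covered in both replicates, the 5ʹ edge of the cover had its median 1 bp from the first coding base in replicate 1 (interquartile range −38 to 55.25 bp, negative being upstream) and 5 bp in replicate 2 (−37 to 63.25 bp). It fell within 100 bp in 75.7% and 77.1% of them. The 3ʹ edge was more spread, with its median 84 bp past the last coding base in replicate 1 (−14.25 to 256.25 bp) and 29 bp in replicate 2 (−45 to 127 bp). The 2 replicates differed by a median of 23 bp at the 5ʹ edge and 48 bp at the 3ʹ edge.

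Between genes, cover differed with the orientation of the neighbours. Of 5504 gaps between neighbouring coding genes, 318 (5.78%) were at least 50% covered in both replicates. Gaps between divergent genes, which hold 2 promoters, were covered over 4.68% and 4.09% of their bases, gaps between tandem genes over 9.58% and 6.94%, and gaps between convergent genes, which hold 2 gene ends, over 19.5% and 11.8%. At least 50% was covered in 21 of 1418 divergent, 117 of 2640 tandem and 180 of 1446 convergent gaps. Where both flanking genes carried a peak, the covered shares were 10.8% and 9.32% for 364 divergent gaps, 23.8% and 18.2% for 669 tandem gaps, and 57.9% and 42.1% for 304 convergent gaps. Where neither flanking gene carried one, they were at most 0.54% in any orientation. The definition largely sets this low value, since 1 bp over a gene counts as a peak and 53 of 3051 members touched no gene. GC content was 30.1% in convergent, 34.8% in tandem and 36.9% in divergent gaps, and its part in these values was not tested. Convergent gaps were also the shortest, with a median of 221 bp against 486 bp for divergent gaps. In convergent gaps with 1 such gene the replicates gave 19.2% and 7.87%.

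**Figure D5:**
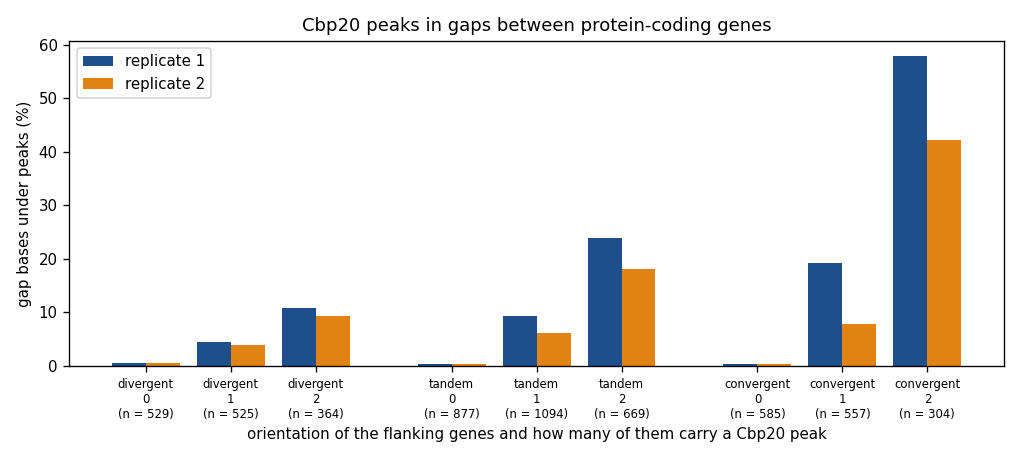
Bases of gaps between neighbouring protein-coding genes under Cbp20 peaks (y axis, %), by orientation of the flanking genes and by how many of them carried a peak, in each replicate. Convergent gaps with 2 peak-carrying neighbours were covered over 57.9% and 42.1%. Gaps with none were covered over at most 0.54%, a low value that the definition largely sets, as few members touch no gene.

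Introns were covered with their genes in the ribosomal protein set. In its 89 genes with introns, the mean covered share of the introns per gene was 99.95% and 99.96%, and in 85 genes the introns were wholly covered in both replicates. In the other 182 intron-containing genes, 75 had a peak and 48 (26.4%) were at least 50% covered. In those 75 genes the mean covered share per gene was 27.4% and 25.4% for the first exon, 50.9% and 39.1% for the intron and 77.4% and 71.4% for the later exons. These means do not weight by length. The 1 bp first exon of *COX5B*, at 0, counted as much as the 1273 bp first exon of *DBP2*, at 100%. They are therefore not shares of first exon bases. Introns of these genes had 34.5% GC and their exons 40.7%. *TAD3*, a subunit of a tRNA adenosine deaminase, and *MMS2*, a ubiquitin-conjugation factor, showed the largest difference between later exons and introns. In *TAD3* the first exon was at 0 in both replicates, the introns at 3.23% and 0 and the later exons at 94% and 91.7%. In *MMS2* the first exon and intron were at 0 and the later exons at 91.1% and 90.6%. The 5ʹ edge of cover in intron-containing genes other than ribosomal protein genes lay at a median of 53.5 and 69 bp inside the gene (n = 48), against 21 and 28 bp for genes without introns (n = 1447). In ribosomal protein genes it lay upstream of the start codon, at −27 and −38 bp with introns and at −44.5 and −51 bp without.

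Outside coding genes, the cover divided the RNA classes. All 76 snoRNA genes had a peak in both replicates and were at least 50% covered, and 59 were wholly covered. One of them, *SNR52*, is transcribed by Pol III. Some snoRNA genes lie within other genes, as *SNR18* does within the wholly covered *EFB1*. Their cover cannot be told from that of the host gene. Of the 6 snRNA genes, the 5 Pol II genes *LSR1* (U2), *SNR14* (U4), *SNR7-L* and *SNR7-S* (U5) and *SNR19* (U1) were covered over 90.5% to 98.8% in replicate 1, and *SNR6* (U6), transcribed by Pol III, was under no member. A replicate 1 peak that met no replicate 2 peak covered 83 of its 112 bp. *TLC1*, the Pol II transcript that serves as telomerase RNA, was also under no member, with 231 of its 1301 bp under a replicate 1 peak that was not found in replicate 2. *NME1*, the RNA of RNase MRP, was at 100% and 98.2%. Among genes transcribed by Pol III, *RPR1*, the RNA of RNase P, was at 94.6% and 97.6% and *SCR1*, the RNA of the signal recognition particle, at 100% in both. Of 275 tRNA genes, 143 (52.0%) lay under peaks in both replicates, 113 of them under members that touched no coding gene, and the median member over a tRNA gene was 273 bp wide. Many of the other tRNA genes lay under a replicate 1 peak that met no replicate 2 peak, among them *TRN1* and *SUP3* at 100%. *YNCJ0029W* was instead covered over 78.2% by a peak of replicate 2 alone. Of all tRNA genes, 250 have under 50% unique 50-mers, so a tRNA gene under no peak of either full list cannot be told from one without mapped reads. Of 6 genes for 5S rRNA, 3 (*RDN5-3*, *RDN5-5* and *RDN5-6*) were covered over 76.5% to 100% in replicate 1 and over 100% in replicate 2. The other 9 of the 12 annotated rRNA genes were under no member. Each of those 9 was covered over 100% by replicate 2 peaks that met no replicate 1 peak, and over 0 in replicate 1. All 12 have under 50% unique 50-mers.

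Most other annotated non-coding RNA genes were under no member. Of 21 other ncRNA genes, *SRG1*, a transcript that runs through the *SER3* promoter, was at 100% in both replicates, and 20 were not covered in both. These 20 were *HRA1*, *ICR1*, *PWR1*, *IRT1*, *ZOD1*, *RNA170*, *RUF5-1*, *RUF5-2*, *RUF20*, *RUF21*, *RUF22*, *RUF23* and 8 SUT transcripts. Of them, *RUF20* was at 52.8% in replicate 1 and 0 in replicate 2, and 4 others carried a peak of 1 list only. Those were *RUF5-1*, *RUF5-2*, *SUT053* and *SUT468*. Of 7 annotated antisense RNAs, 3 were covered, namely *TBRT* (94.4% and 94.1%), *YNCM0001W* (72.8% and 71.9%) and *RME2* (61.2% and 55.6%). An antisense gene and its sense partner share these bases, and unstranded peaks cannot tell them apart. Of 18 pseudogenes, *CCW22* was at 100% in both and *AAD6* at 14% and 55.1%.

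Rnt1, the yeast RNase III that cleaves stem-loops in precursor RNAs, was mapped in the other strain of the ChIP series. Of the 3051 Cbp20 members, 845 met a Rnt1 peak of its replicate 1 and 1234 one of its replicate 2, and 825 (27%) met one in both. Another 1797 met none in either. Members that met Rnt1 in both lists had a median width of 1195 bp, and those that met none 457 bp. Wider peaks have more room for an overlap, and no share for chance placement was computed. Of the 1632 coding genes at least 50% covered by Cbp20, 641 (39.3%) had a Rnt1 peak in both replicates, against 10.5% of the genes that Cbp20 covered in part only. The share over all coding genes was not computed, so these values have no background beside them. Cover by either protein was higher in the highest GC class than in the lowest, and the part of GC content here was not tested.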

How the data were processed

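Peaks of 2 Cbp20-myc ChIP-seq libraries were described, with 2 Rnt1-myc libraries beside them. Per the paper's methods, the authors pooled several immunoprecipitations per library, aligned paired reads to sacCer3 with Bowtie2, kept uniquely mapped reads above a mapping quality limit, called peaks with MACS2 at default options and kept those under a q-value limit. Whether input DNA entered the calls is not given in the sources used here. The deposited lists, 1 for each library, hold chromosome, start and end only. They have no counts or signal, so the depth is unknown, and a deeper library could yield more and wider peaks.

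All peaks lay within the chromosome lengths of R64, whose annotation gave gene positions from start to stop codon, RNA genes and sequences. Coordinates count from 1. The labels number the second replicate only, so the other was called replicate 1. A gene or gap counted as covered where the rule held in both replicates, for members and for the replicate 2 peaks that met a replicate 1 peak. All values are descriptions, and no test was run, because both libraries belong to 1 group. Mappability was taken as the share of 50-mers found once in the genome. Values were computed with Python 3.11.15, numpy 2.4.6 and pandas 2.3.3, and the overlap code was checked on simulated peaks. The 25 function lists, the 6 product classes and the members were chosen with earlier results of these data known. Named genes were the 2 most and 2 least covered of each list (all in lists of up to 8), the 10 with most covered bases, the 10 longest, the 5 longest without a peak, those under the 5 widest members, the strain loci and mating-type genes, *STO1* and *CBC2*, intron genes with the largest contrast, and RNA genes other than tRNA and snoRNA. The alternatives were each replicate alone, an overlap of at least 50%, the wider 50% of peaks, genes with no other gene within 300 bp, genes whose peaks touch no snoRNA, snRNA or tRNA gene, and other length classes.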

Additional observations from a re-analysis of the deposited data

How the results depend on the processing

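No paired analysis was possible because the results come from no test. Keeping the wider 50% of the peaks of each replicate, in place of a stricter score, lowered the members from 3051 to 1581 and the coding genes with a peak in both replicates from 44.3% to 29%. Among genes with no other gene within 300 bp, 10% were wholly covered in both replicates, against 6.65% of all. With 1 replicate's whole list alone, the genes with a peak made up 49.2% to 51.4%, those at least 50% covered 30.1% to 31.7%, those wholly covered 7.66% to 8.90%, those with the first coding base covered 13% to 14.8% and those with the last 20.2% to 27.3%. The gaps at least 50% covered ranged from 1.69% to 1.76% (divergent), 4.81% to 7.77% (tandem, against 4.43% in both) and 12.7% to 24.7% (convergent, against 12.4% in both), with the higher tandem and convergent values from replicate 1. The cause was not tested. The order of divergent, tandem and convergent gaps held under each alternative run on them. Every other alternative stayed within 1.5 times the value given in the report. Without heights or depth, the lists cannot say whether a bare gene lacked Cbp20 or lay under the calling threshold.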

Other observations

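The relation between codon use and cover had exceptions. In the class of highest codon adaptation index outside ribosomal protein genes, 102 of 561 genes had no base under a member or its counterpart, and 25 of the 102 carried a peak of 1 list only. The 20 of highest index among them included *PDC5*, *ANB1*, *HSP12* (a stress-induced membrane protein gene), the cell wall mannoprotein genes *TIR1*, *TIR2* and *TIR3*, known for induction in cold or without oxygen, *HXT4*, *THI4* of thiamine synthesis, *HEM13* of haem synthesis and *RNR2*, a small subunit of ribonucleotide reductase. Replicate 2 alone had peaks over 66.1% of *HEM13* and 61.3% of *RNR2*. *MET17* and *LEU2*, which the strain lacks, were also among them. At the other end, 254 genes in the 2 classes of lowest index were at least 50% covered in both replicates. Those of lowest index were *PET122* (59.5% and 74.1%), *SHU1* (69.1% and 79.2%) and *WHI5*, the repressor of the G1 to S transition, at 100% in both. These genes were chosen after their values were seen.

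Cover was low near chromosome ends. Of coding genes under 10 kb from an end, 4.35% were at least 50% covered in both replicates, and of those from 10 to 20 kb 9.68%. The shares were 15.2% from 20 to 30 kb, 25.1% from 30 to 50 kb, 30.5% from 50 to 100 kb and 28.2% beyond. With genes under 50% unique 50-mers left out, the shares under 10 kb and from 10 to 20 kb were 7.32% (n = 41) and 11.8% (n = 85). None of 16 centromeres was touched in both replicates. Of 352 replication origins, 24 were touched and 10 were at least 50% covered. Of 50 Ty elements 43 were touched, but 49 of them have under 50% unique 50-mers, and of 384 solo or flanking long terminal repeats 56 were touched.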
